A study of Mus musculus with 11 samples.

Results

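The 47 genes described here encode enzymes, cofactors, membrane proteins, proton pump subunits and regulators of the lysosome. They were chosen by name, as the rows of the count table whose gene symbol is on the list, and all 47 were found among the 29307 genes listed. Earlier results of these data were known when the list was made. Their mRNA was compared between hepatic sinusoidal endothelial cells (ECs) of 6 conventionally raised (CONV-R) and 5 germ-free (GF) mice. All mice were male, age-matched, adult C57BL/6J animals that carried no transgene and received no treatment. CONV-R mice were kept under specific pathogen-free conditions and GF mice in isolators. The cells were enriched with CD146 beads and then sorted as CD31+ CD105+ CD146+ cells. Each mouse gave 1 library, made from RNA that had undergone whole-transcriptome amplification.

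Lysosomes are acidic organelles in which many hydrolases break down the lipids, glycans and proteins that arrive by endocytosis or autophagy. A proton pump keeps the lumen acidic, heavily glycosylated membrane proteins line it, and transporters return cholesterol, amino acids and sugars to the cytosol. Liver sinusoidal ECs are known as scavenger cells, which take up modified proteins, lipoprotein remnants and glycosaminoglycans from the blood and pass them to lysosomes. The transcription factors TFEB and TFE3 bind an E-box in the promoters of many lysosomal genes and can raise them together.

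The libraries held between 7922855 and 14669352 counts in CONV-R mice and between 7242717 and 16164588 in GF mice, and the 47 genes accounted for 0.844% to 0.951% of them in CONV-R and 0.877% to 1.19% in GF mice. All 14 markers of sinusoidal ECs were expressed, the weakest at a mean of 427 CPM (read counts normalised for library size by TMM). With edgeR, 0 of these 14 passed an adjusted p of 0.05 (4 had an unadjusted p under 0.05), and DESeq2 and voom also called 0. Transcripts of Kupffer cells, the resident liver macrophages, were present at low levels and differed between the groups. Of 10 Kupffer cell markers, 7 were higher in GF libraries, and 3 without GF mouse 6. Their summed level was 86.0 to 222.4 CPM in CONV-R mice (median 106 CPM) and 197 to 931 CPM in GF mice (median 288 CPM), where the next highest value was 357 CPM. The defining markers *Clec4f* and *Timd4* averaged 35.9 and 5.19 CPM in CONV-R and 105.5 and 15.7 CPM in GF libraries. Their GF medians were 79.9 and 8.32 CPM, and GF mouse 6 had 251.7 and 38.8 CPM. Without this mouse neither was called (adjusted p = 0.110 and 0.135 in edgeR's test). GF mouse 6 held the highest Kupffer cell sum, so the main counts over the 47 genes, and the calls among them that end without this mouse, are also given without it. Markers of monocytes and neutrophils summed to 19.2 to 59.0 CPM in CONV-R and 43.7 to 229 CPM in GF mice. The sums of 2 weaker marker lists did not overlap between the groups. Those of 9 lymphocyte markers were 6.19 to 15.4 CPM in CONV-R and 3.77 to 5.52 CPM in GF mice, and those of 5 cholangiocyte (bile duct cell) markers 0.137 to 8.96 CPM and 13.6 to 36.8 CPM. The part of these cells in the results below was not tested. In bulk RNA, a change in the number of cells of a type and a change in RNA per cell cannot be told apart.

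In the GF libraries, 7 of the 47 lysosomal genes were higher than in the CONV-R libraries and 0 were lower. With the Kupffer cell markers as a covariate, 1 of the 47 was called, *Lipa* (2.13%, against 0.643% of all tested genes in that fit). The 7 genes were *Lipa*, *Psap*, *Man2b1*, *Ctss*, *Scarb2*, *Ctsc* and *Ctsa*, which cover lipid, glycan and protein breakdown and enzyme sorting. The test was edgeR's quasi-likelihood test on the counts, with Benjamini-Hochberg adjustment over the 12905 genes that passed the filter on low counts, a filter that all 47 passed. Voom called the same 7 genes, against 7.5% of all tested genes. With robust dispersion edgeR called 5 of the 47 (10.6%, against 7.43% of all tested genes). Limma-trend on the deposited normalized values called 2 (4.26%, against 1.63%). An adjusted p under 0.05 counts as called. The 7 called genes are 14.9% of the 47, against 7.48% of all tested genes. In each direction separately, 4.8% of all tested genes were called higher and 2.67% lower. At an unadjusted p under 0.05, 16 of the 47 were higher and 0 lower, whereas 23% of all tested genes passed this p in either direction.

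The difference was small for most genes and positive in nearly all of them, but in fewer with the Kupffer cell markers in the model. The fitted Log2FC, GF relative to CONV-R, was positive for 43 of the 47 genes (91.5%) and negative for 4, whereas 49.1% of all tested genes had a positive value. The median Log2FC was 0.26 over the 47 genes and -0.01 over all tested genes. With the markers as a covariate 31 of the 47 values were positive and 16 negative, with a median of 0.07, and without GF mouse 6 there were 39 and 8, with a median of 0.19. Of the 40 genes not called, 36 had a 95% interval that lay within a Log2FC of -1 to 1, and 15 had an interval within -0.5 to 0.5. CPM of all 5 GF mice lay above those of all 6 CONV-R mice in 4 of the 47 genes, *Lipa*, *Psap*, *Ctss* and *Scarb2*, against 3.22% of all tested genes. DESeq2 called 7 of the 46 lysosomal genes to which it gave an adjusted p, against 9.93% of its tested genes, and 6 of these were shared with edgeR, since it called *Atp6v0d1* and gave *Ctss* no adjusted p. A correction for GC content and length left 7 called, against 9.07% of all tested genes. Without GF mouse 6, edgeR called 4 of the 47 (*Lipa*, *Psap*, *Man2b1* and *Ctss*; 8.51%), against 4.74% of all tested genes.

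**Figure D1:**
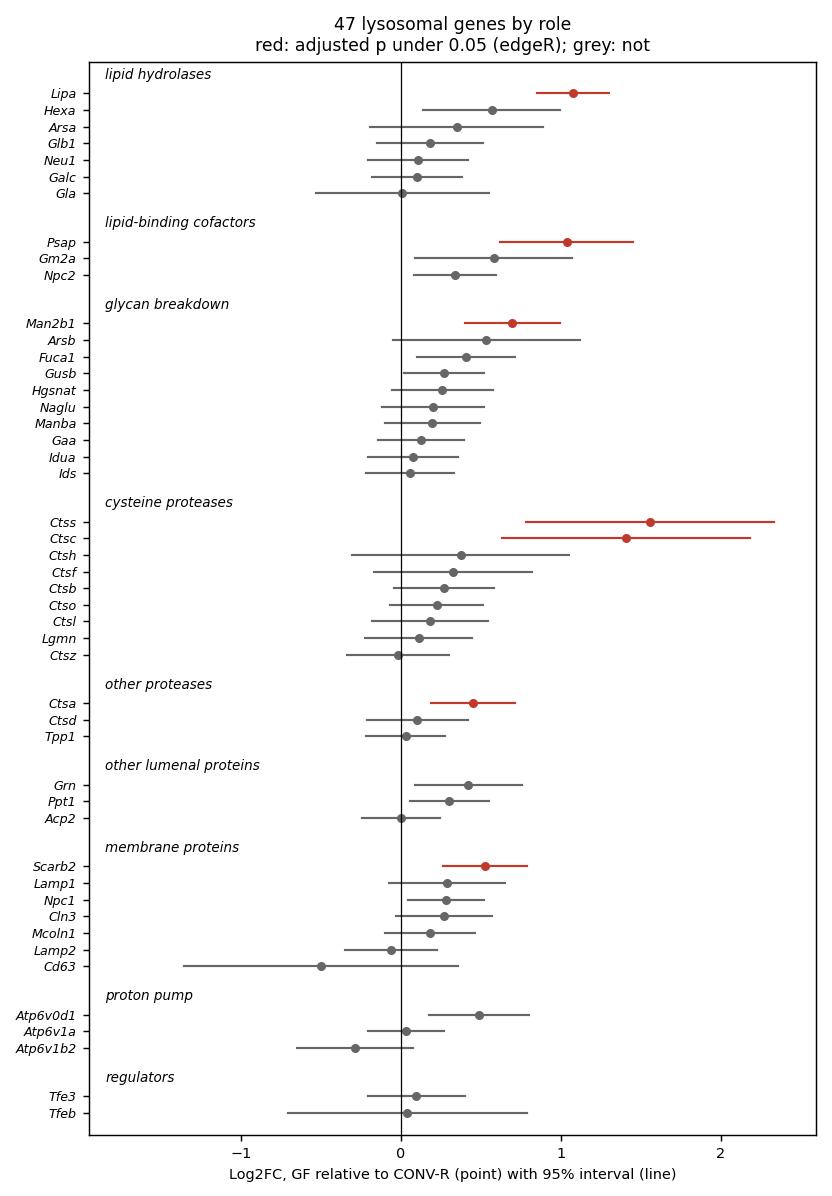
Log2FC of each of the 47 lysosomal genes in GF relative to CONV-R ECs (horizontal axis, log2 units; point, edgeR estimate; line, 95% interval; 6 CONV-R and 5 GF mice), grouped by role. The 7 genes with an adjusted p under 0.05 are red, and all of them, like 43 of the 47 points, lie to the right of 0.

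The promoters of these genes are shown because the E-box bound by TFEB and TFE3 is what many lysosomal genes are known to have in common. Promoter sequences from RefSeq (GRCm38.p6), with 250 bases before and 50 bases from each gene's start, were matched by symbol for 42 of the 47 genes. The E-box CACGTG, which reads the same on both strands, was found in 15 of these 42 genes (35.7%) and in 2187 of the 27025 genes with a promoter in the table (8.09%). Counted by promoter, 7.15% of all promoters held it. The longer TCACGTGA, also palindromic and containing the former, was found in 7 of the 42 genes (16.7%) and in 1.12% of all genes. Among the 7 genes called higher, CACGTG was found in 1, *Ctsa*, and among the 35 other genes with a promoter it was found in 14. These are matches of letters and not measured binding sites. The stretches from base -110 to base 12 counted from the start are printed 5′ to 3′ in lower case, with CACGTG in capitals. The first 5 are called genes: *Lipa* (chr19:34527463-34527584, minus strand), *Psap* (chr10:60277518-60277639, plus), *Scarb2* (chr5:92505646-92505767, minus), *Ctss* (chr3:95526676-95526797, plus) and *Ctsa* (chr2:164833663-164833784, plus; its other RefSeq promoter holds no match).
*Lipa*: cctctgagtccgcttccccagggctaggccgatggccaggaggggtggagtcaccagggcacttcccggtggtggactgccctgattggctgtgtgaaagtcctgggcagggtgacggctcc
*Psap*: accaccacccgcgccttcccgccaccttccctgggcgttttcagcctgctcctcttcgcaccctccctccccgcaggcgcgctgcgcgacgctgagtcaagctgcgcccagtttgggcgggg
*Scarb2*: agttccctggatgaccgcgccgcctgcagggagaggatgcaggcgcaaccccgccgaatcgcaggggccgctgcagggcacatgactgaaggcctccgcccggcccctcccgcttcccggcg
*Ctss*: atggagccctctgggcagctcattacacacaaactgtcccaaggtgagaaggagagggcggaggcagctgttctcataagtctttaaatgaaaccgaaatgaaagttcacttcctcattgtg
*Ctsa*: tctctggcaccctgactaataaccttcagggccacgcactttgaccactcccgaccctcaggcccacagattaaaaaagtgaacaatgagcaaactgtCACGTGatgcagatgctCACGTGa
The next 4 are genes that were not called and that hold the motif within this stretch: *Atp6v0d1* (chr8:105566053-105566174, minus), *Lamp1* (chr8:13159051-13159172, plus), *Mcoln1* (chr8:3500409-3500530, plus) and *Ctsd* (chr7:142387816-142387937, minus).
*Atp6v0d1*: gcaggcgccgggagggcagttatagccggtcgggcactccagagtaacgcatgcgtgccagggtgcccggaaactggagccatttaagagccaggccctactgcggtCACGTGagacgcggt
*Lamp1*: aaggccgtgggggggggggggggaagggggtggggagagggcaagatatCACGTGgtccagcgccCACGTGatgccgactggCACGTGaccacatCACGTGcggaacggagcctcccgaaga
*Mcoln1*: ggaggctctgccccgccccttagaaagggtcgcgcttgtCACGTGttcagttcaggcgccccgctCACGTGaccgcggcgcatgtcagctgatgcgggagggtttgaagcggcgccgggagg
*Ctsd*: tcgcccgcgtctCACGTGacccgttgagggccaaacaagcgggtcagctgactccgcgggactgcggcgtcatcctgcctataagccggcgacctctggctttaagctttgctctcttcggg
*Lamp1* held the motif 4 times within 61 bases before its start, and *Mcoln1* held it at bases -71 and -45. In *Ctsa* the motif began at base -12 and again at base 6, each time within TCACGTGA. *Lipa*, the lysosomal gene with the smallest adjusted p, has no match in its promoter.

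Among the enzymes that act on lipids, *Lipa* stood out. It encodes lysosomal acid lipase, which frees cholesterol and fatty acids from the cholesteryl esters and triglycerides of endocytosed lipoproteins, and it lies on GRCm38 at chr19:34492318-34527474 on the minus strand. *Lipa* lay at 109 to 149.6 CPM in the 6 CONV-R mice, around a median of 124 CPM. In GF mice 1, 2, 4, 5 and 6 it reached 299.6, 254, 278, 234 and 277 CPM. Every GF mouse was above every CONV-R mouse, with a gap from 149.6 to 234 CPM between the groups. The group means were 127 ± 14.7 CPM (SD, n = 6) and 268 ± 25.1 CPM (SD, n = 5), a Log2FC of 1.08 (SE 0.11) with an adjusted p of 9.24e-06 in edgeR's quasi-likelihood test. *Lipa* was called with each mouse left out in turn, with a Log2FC between 1.03 and 1.13.

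The other 6 lipid hydrolases, which degrade sphingolipids and their glycan chains, had Log2FC values from 0.01 (*Gla*) to 0.57 (*Hexa*), all positive and none called by edgeR's test above (1 with an unadjusted p under 0.05, *Hexa*). *Hexa*, the alpha subunit of beta-hexosaminidase, had the next largest value (SE 0.20, adjusted p = 0.101 in edgeR's test). Its CONV-R mice ran from 32.3 to 100.6 CPM and its GF mice from 82.0 to 101.6 CPM, so the groups overlapped through CONV-R mouse 1, without which *Hexa* was called (adjusted p = 0.0135, the lowest with 1 mouse left out; the highest was 0.1999). It was also called by edgeR without a filter on low counts. *Galc*, which removes galactose from galactosylceramide, differed by a Log2FC of 0.10 (95% interval -0.18 to 0.38).

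*Psap* encodes prosaposin, the precursor of the saposins, small proteins that present sphingolipids to their hydrolases (chr10:60277627-60302597, plus strand). Over the CONV-R mice *Psap* ran from 99.7 to 153 CPM, with a median of 130.3 CPM. The GF values of mice 1, 2, 4, 5 and 6 were 253.5, 206, 414, 160.5 and 288 CPM. The groups did not overlap, although GF mouse 5 was only just above the highest CONV-R mouse. Means were 129 ± 25.5 CPM (SD, n = 6) and 264 ± 96.5 CPM (SD, n = 5), with a Log2FC of 1.04 (SE 0.20, adjusted p = 0.0039 in edgeR's test). GF mouse 4 was the highest, and without it the Log2FC was 0.82 and still called.

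The other cofactors of this group were *Gm2a*, the GM2 ganglioside activator, and *Npc2*, the soluble protein that hands cholesterol to NPC1. *Gm2a* had a Log2FC of 0.58 (SE 0.23, adjusted p = 0.143 in edgeR's test) and, with a mouse left out, was called only without GF mouse 5, its lowest GF value at 10.2 CPM. *Npc2* lay at 45.5 to 65.7 CPM in CONV-R mice (median 59.7 CPM). In GF mice 1, 2, 4, 5 and 6 it was 76.8, 61.0, 78.8, 74.2 and 78.0 CPM. All GF mice but mouse 2 were above the CONV-R range. The Log2FC of *Npc2* was 0.34 (SE 0.12, adjusted p = 0.101 in edgeR's test), and it was not called with any mouse left out.

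Of the 10 enzymes of glycan breakdown, *Man2b1* was called and all 10 had a positive Log2FC, from 0.06 (*Ids*) upward. Most of them remove sugars from glycoproteins, glycosaminoglycans or glycogen, *Ids* and *Arsb* encode sulfatases, and *Hgsnat* encodes an acetyltransferase of heparan sulfate breakdown. *Man2b1* encodes lysosomal alpha-mannosidase (chr8:85083270-85098282, plus strand). Its CONV-R mice lay between 286 and 465 CPM, with a median of 395 CPM. GF mice 1, 2, 4, 5 and 6 had 672, 647, 673, 425 and 689.7 CPM of *Man2b1*. All GF mice except mouse 5 were above the CONV-R range, and mouse 5 was inside it. The Log2FC was 0.70 (SE 0.14, adjusted p = 0.00591 in edgeR's test), from means of 383 ± 65.0 CPM (SD, n = 6) and 622 ± 111 CPM (SD, n = 5). *Arsb* had the next largest value, 0.54, with a wide interval of -0.05 to 1.12 (0.30 without GF mouse 6), and *Fuca1*, the alpha-fucosidase, had 0.41 with the next smallest adjusted p (SE 0.15, adjusted p = 0.101 in edgeR's test), and was called without GF mouse 5 (adjusted p = 0.0341). Among the enzymes that act on heparan sulfate, Log2FC values were 0.06 for *Ids*, 0.08 for *Idua*, 0.20 for *Naglu*, 0.26 for *Hgsnat* and 0.27 for *Gusb*. Of these, 0 were called by edgeR, DESeq2 or voom. *Gusb* had a 95% interval of 0.02 to 0.52 (unadjusted p = 0.0357, adjusted p = 0.181 in edgeR's test).

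Among the 9 cysteine proteases, the largest differences were in the 2 called genes, *Ctss* and *Ctsc*, which were weakly expressed, whereas the abundant *Ctsl*, *Ctsb* and *Lgmn* were not called. *Ctss* encodes cathepsin S, which antigen-presenting cells use to trim the invariant chain of MHC class II (chr3:95526786-95556403, plus strand). *Ctss* lay at 15.2 to 31.6 CPM in CONV-R mice (median 22.2 CPM). GF mice 1, 2, 4, 5 and 6 had 41.6, 46.2, 37.0, 38.3 and 180.4 CPM of *Ctss*. All GF mice were above all CONV-R mice, and mouse 6 was far above the rest. The Log2FC was 1.56 (SE 0.37, adjusted p = 0.0156 in edgeR's test) with all mice and 0.81 without GF mouse 6, where the adjusted p was 0.0283 (0.0107 to 0.0435 over the 11 mice left out in turn). DESeq2 gave *Ctss* no adjusted p. It was not called with robust dispersion (adjusted p = 0.0541), with the deposited normalized values (0.159, limma-trend) or with the Kupffer cell markers as a covariate, where its Log2FC was -0.02 (0.994).

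*Ctsc* encodes cathepsin C, which activates the serine proteases of immune cell granules (chr7:88278085-88310888, plus strand). CONV-R mice ran from 8.60 to 23.8 CPM of *Ctsc*, with a median of 15.6 CPM. In GF mice 1, 2, 4, 5 and 6 it was at 31.3, 36.9, 19.8, 25.9 and 106.9 CPM. GF mouse 6 was again the highest and GF mouse 4 fell within the CONV-R range. The Log2FC was 1.41 (SE 0.37, adjusted p = 0.0267 in edgeR's test), and without GF mouse 6 it was 0.79 and no longer called (adjusted p = 0.101, the highest of the 11 with a mouse left out, which began at 0.0132). It was also not called without CONV-R mouse 2 (adjusted p = 0.0595) or CONV-R mouse 4 (0.0669).

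*Ctsl* encodes cathepsin L, an endopeptidase found in most cell types, and was among the most abundant of the list per length. *Ctsl* lay at 964 to 1896 CPM in CONV-R mice (median 1116 CPM). Its GF values were 1257, 1146, 1864, 1118 and 1483 CPM in mice 1, 2, 4, 5 and 6. The groups overlapped, with CONV-R mouse 3 far above the other CONV-R mice, which lay at 964 to 1170 CPM. The Log2FC was 0.18 (95% interval -0.18 to 0.55, adjusted p = 0.5702 in edgeR's test), 0.36 without CONV-R mouse 3 and 0.05 without GF mouse 4, and *Ctsl* was not called with any mouse left out. The other 6 cysteine proteases had Log2FC values between -0.02 (*Ctsz*) and 0.38 (*Ctsh*, 0.01 without GF mouse 6), and 0 of them were called by edgeR, DESeq2 or voom.

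**Figure D2:**
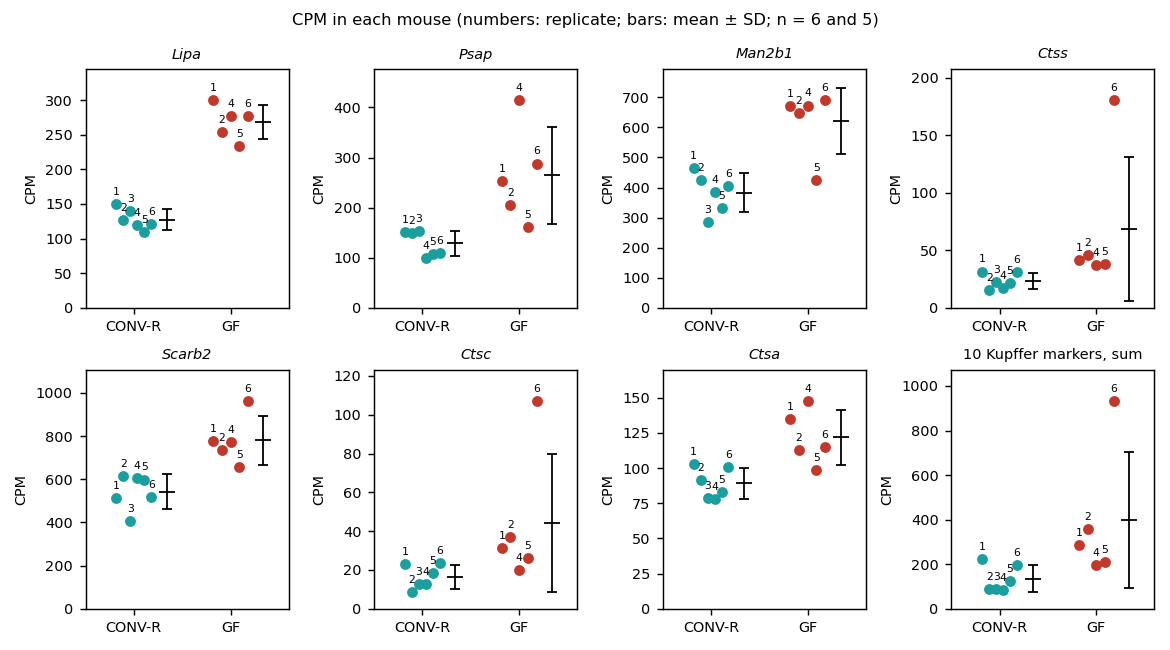
CPM (vertical axes, linear from 0) of the 7 called lysosomal genes and of the sum of 10 Kupffer cell markers in each mouse; points are mice with their replicate number, and the bars beside them are the mean ± SD of 6 CONV-R (teal) and 5 GF mice (red). *Lipa* separates the groups with all 5 GF mice between 234 and 299.6 CPM, whereas in *Ctss*, *Ctsc* and the marker sum GF mouse 6 lies far above the other mice.

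The serine and aspartic proteases gave 1 call, *Ctsa*. It encodes protective protein/cathepsin A, which holds beta-galactosidase and neuraminidase 1 in a stable complex (chr2:164832873-164841032, plus strand). CONV-R mice lay at 78.0 to 103 CPM of *Ctsa*, with a median of 87.1 CPM. GF mice 1, 2, 4, 5 and 6 were at 134.7, 113, 147, 98.8 and 115 CPM. GF mouse 5 fell within the CONV-R range and the other 4 lay above it. The Log2FC was 0.45 (SE 0.12, adjusted p = 0.0351 in edgeR's test). With 1 mouse left out at a time *Ctsa* stayed called in 4 of 11 fits and had an adjusted p of up to 0.0924 in the others (without CONV-R mice 2, 3, 4 or 5 or GF mice 1, 4 or 6). It was not called without a filter on low counts (adjusted p = 0.0545). Its partners in the complex, *Glb1* and *Neu1*, had Log2FC values of 0.18 and 0.11 and were not called. In the GENCODE M21 annotation 819 exon bases of *Ctsa* overlap the genes *Pltp* and *Neurl2* on the other strand. *Neurl2* was too weak to be tested, and the Log2FC of *Pltp* was 1.44 (adjusted p = 0.0939 in edgeR's test) from a CONV-R mean of 3.85 CPM. Whether reads were counted by strand is not stated, so reads of these genes cannot be told apart where they overlap. In all, 17 of the 47 genes share exon bases with another annotated gene, among them *Ctsl*, with 395 bases on the same and 1742 on the other strand, and *Ctsd*, with 808 of its 2351 exon bases on the same strand, so their levels have the same limit.

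*Ctsd* encodes cathepsin D, the main aspartic protease of the lysosome. *Ctsd* ran from 175 to 303 CPM in CONV-R mice (median 236 CPM). It was 255, 219, 329.6, 196 and 263 CPM in GF mice 1, 2, 4, 5 and 6. The ranges overlapped over most of their length, with GF mouse 4 above every CONV-R mouse and CONV-R mice 4 and 5 below every GF mouse, and the Log2FC was 0.10 (95% interval -0.21 to 0.42, adjusted p = 0.734 in edgeR's test). *Tpp1*, a tripeptidyl peptidase, was as level, at 0.03 (95% interval -0.22 to 0.28).

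Of the other lumenal proteins, *Grn* encodes progranulin, which is cleaved in lysosomes and supports several of their enzymes. *Grn* lay at 156 to 268 CPM in CONV-R mice (median 201.5 CPM). GF mice 1, 2, 4, 5 and 6 had 295, 240.6, 315, 175 and 321 CPM of it. GF mice 1, 4 and 6 were above the CONV-R range, mice 2 and 5 inside it. *Grn* had a Log2FC of 0.42 (SE 0.16, adjusted p = 0.118 in edgeR's test) and was called only without CONV-R mouse 1 or without GF mouse 5, with an adjusted p from 0.0240 to 0.267 over the mice left out. *Ppt1*, which removes palmitate from proteins, had 0.30 and *Acp2*, an acid phosphatase, 0.00, and neither was called.

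The 7 membrane proteins gave 1 call, *Scarb2*. It encodes LIMP-2, the receptor that carries glucocerebrosidase to lysosomes (chr5:92441314-92506833, minus strand). *Scarb2* lay at 405 to 616 CPM in CONV-R mice (median 557.5 CPM). GF mice 1, 2, 4, 5 and 6 had 779, 733.5, 772, 656 and 961 CPM. No GF mouse fell into the CONV-R range. The Log2FC was 0.53 (SE 0.12, adjusted p = 0.0156 in edgeR's test), and without GF mouse 6 it was 0.44 with an adjusted p of 0.0545, the highest of the 11 with a mouse left out (the lowest was 0.00918).

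*Lamp1* and *Lamp2* encode the glycoproteins that cover most of the inner lysosomal membrane. *Lamp1* lay at 333 to 672 CPM in CONV-R mice (median 533 CPM), and at 689, 596, 773, 447 and 779 CPM in GF mice 1, 2, 4, 5 and 6. *Lamp2* lay at 1628 to 1880.0 CPM in CONV-R mice (median 1677 CPM), and at 1200.0, 1354, 2146, 1492 and 2023 CPM in GF mice 1, 2, 4, 5 and 6. *Lamp1* had a Log2FC of 0.29 (95% interval -0.07 to 0.65) and *Lamp2* of -0.06 (95% interval -0.35 to 0.23), and neither was called. For *Lamp2* the GF mice spread to both sides of the CONV-R range, 3 below it and 2 above.

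*Npc1* encodes the membrane transporter that takes cholesterol from NPC2 and exports it. *Npc1* was at 51.0 to 71.9 CPM in CONV-R mice (median 62.6 CPM). In GF mice 1, 2, 4, 5 and 6 it was at 83.9, 77.4, 70.1, 72.7 and 81.1 CPM. All but GF mouse 4 were above the CONV-R range, by a small margin in mouse 5. The Log2FC was 0.28 (SE 0.11, adjusted p = 0.147 in edgeR's test), so the cholesterol exporters *Npc1* and *Npc2* did not pass the test that *Lipa* passed. *Mcoln1*, the lysosomal calcium channel, had 0.18 and *Cln3* 0.27. *Cd63*, a tetraspanin, had the lowest Log2FC of the list, -0.50, with an interval from -1.36 to 0.36. It was counted at 1.65 CPM in CONV-R mice on average, and since the annotation holds a *Cd63* pseudogene its value is uncertain.

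The proton pump was represented by 3 subunits. *Atp6v0d1*, part of the membrane sector, had a Log2FC of 0.49 (SE 0.15) and just missed the threshold (adjusted p = 0.0535 in edgeR's test). With a mouse left out it was called only without CONV-R mouse 1 (adjusted p = 0.0396). GF mice ran from 55.6 to 87.4 CPM and CONV-R mice from 35.2 to 55.9 CPM. *Atp6v1a* had 0.03 and *Atp6v1b2* -0.29, both subunits of the catalytic sector. With edgeR 0 of the 3 were called, and 1 had an unadjusted p under 0.05. DESeq2 called 1, *Atp6v0d1*, and voom called 0.

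*Tfeb* and *Tfe3* encode the transcription factors themselves. *Tfeb* was at 3.05 to 8.84 CPM in CONV-R mice (median 5.67 CPM), and at 8.77, 5.80, 6.00, 6.08 and 1.63 CPM in GF mice 1, 2, 4, 5 and 6. *Tfe3* was at 48.9 to 88.6 CPM in CONV-R mice (median 78.4 CPM), and at 78.5, 71.8, 85.5, 85.8 and 79.5 CPM in GF mice 1, 2, 4, 5 and 6. The groups overlapped for both. *Tfeb* had a Log2FC of 0.04 with a wide interval of -0.71 to 0.79, and *Tfe3* of 0.10 with an interval of -0.21 to 0.40. With edgeR, DESeq2 and voom 0 of the 2 were called, and 0 had an unadjusted p under 0.05 with edgeR. These factors are known to be controlled mainly by phosphorylation and their place in the cell, which mRNA does not show.

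Compared per length, the lysosomal genes covered a wide range of levels. Mean CPM per kilobase of exon in CONV-R ECs was highest for *Lamp1* (201), *Ctsl* (186), *Lamp2* (179.6), *Ctsb* (148), *Lgmn* (137) and *Tpp1* (128), and lowest for *Tfeb* (0.976) and *Cd63* (0.447). *Lamp1*, *Ctsl* and *Lamp2* did not differ in this order beyond the spread between mice. With the longest transcript in place of all exons, *Lamp2* came first and the same 6 genes led. On the same scale *Lipa* stood at 18.8 in CONV-R and 39.6 in GF ECs, *Psap* at 46.9 and 96.3, and *Ctss* at 17.1 and 50.6. The GF mean of *Ctss* includes mouse 6 at 180.4 CPM, where the other GF mice lay at 37.0 to 46.2 CPM. The 6 genes that led on both lengths were not among those called, and *Scarb2* was the called gene with the highest CONV-R level, in place 8 per kilobase of exon and in place 7 with the longest transcript.

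**Figure D3:**
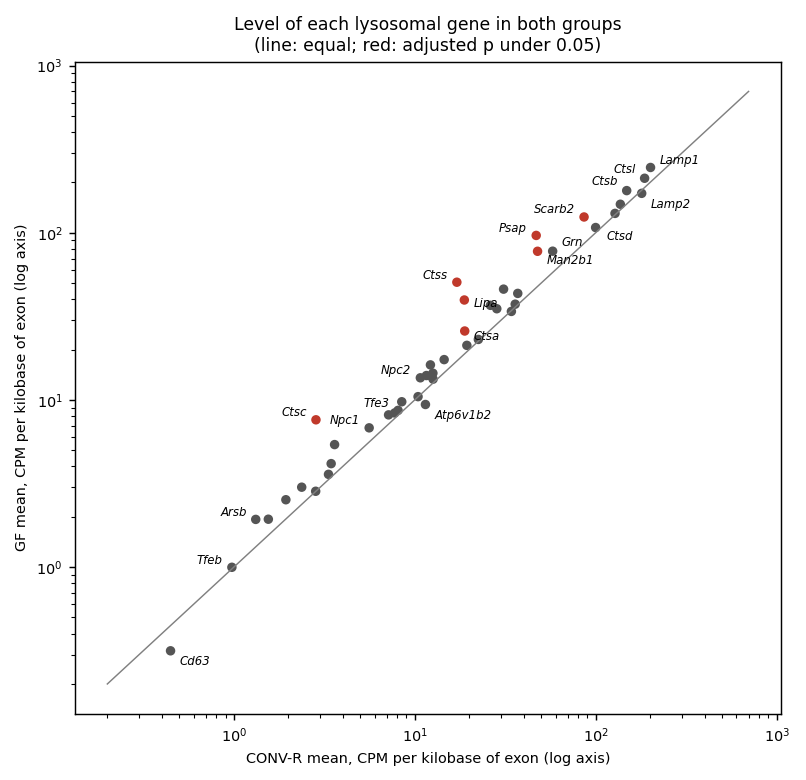
Mean CPM per kilobase of exon of each of the 47 lysosomal genes in CONV-R (horizontal, log axis) and GF ECs (vertical, log axis), with a line of equal levels. The 7 called genes (red) lie above the line from *Ctsc* at 2.85 to *Scarb2* at 86.3 in CONV-R, and the most abundant genes, *Lamp1*, *Ctsl* and *Lamp2*, lie close to it.

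The GF mice did not share the pattern equally. Relative to the CONV-R mean, the median log2 difference over the 47 genes was 0.28 in GF mouse 1, 0.15 in mouse 2, 0.40 in mouse 4, -0.02 in mouse 5 and 0.38 in mouse 6. In GF mouse 4, 32 of the 47 genes were above every CONV-R mouse, in mouse 6 29, in mouse 1 18, in mouse 2 14 and in mouse 5 10. Of all tested genes, 21.8%, 24.1%, 23.9%, 21.2% and 18.5% were above every CONV-R mouse in these mice, against 68.1%, 61.7%, 38.3%, 29.8% and 21.3% of the 47. Below every CONV-R mouse were 0, 3, 6, 5 and 6 of the 47 genes, and between 18.8% and 25.7% of all tested genes. Mice 4 and 6 had the largest median differences, and mouse 5 was close to the CONV-R mice in most genes. *Lipa*, *Psap*, *Ctss* and *Scarb2* were above the CONV-R range in mouse 5 as in the other GF mice. Kupffer cell markers did not follow the same order. Their sum was lowest among GF mice in mouse 4 (197 CPM) and mouse 5 (211.5 CPM), both below CONV-R mouse 1 (222.4 CPM), and highest in mouse 6 (931 CPM). The sum of the 14 sinusoidal EC markers followed the order of the medians. It was 58970, 54640, 48810, 48300 and 41170 CPM in GF mice 4, 6, 1, 2 and 5. In CONV-R mice it was 43310 to 52890 CPM. The part of either sum in the pattern was not tested.

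**Figure D4:**
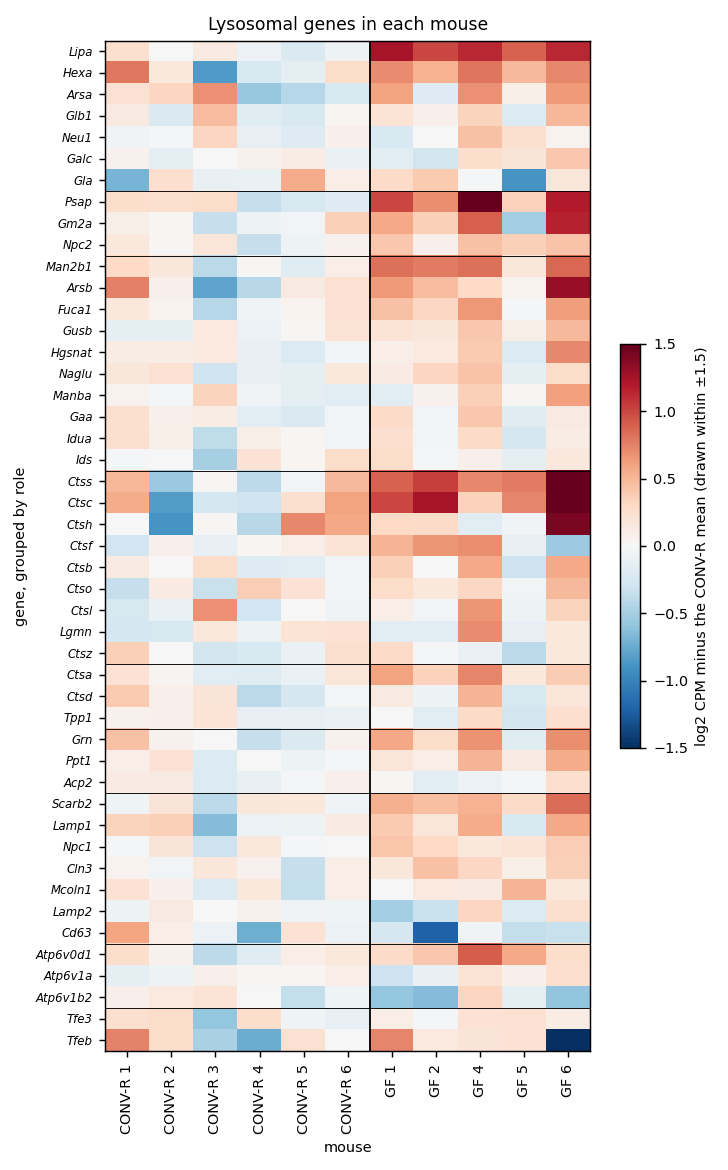
Log2 CPM of each lysosomal gene in each mouse minus the mean of the 6 CONV-R mice (colour, drawn within ±1.5; rows are genes grouped by role as in the plot of Log2FC, columns are mice). GF mice 4 and 6 are red over most rows, GF mouse 5 is close to the CONV-R mice in most rows, and *Lipa* is red in all 5 GF mice.

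Because the Kupffer cell markers differed between the groups, each gene was also fitted with the mean log2 CPM of the 10 markers as a covariate. With it, 1 of the 47 genes was called, *Lipa*, against 0.643% of all tested genes, and 31 of the 47 had a positive Log2FC. The Log2FC of *Lipa* was 0.97 (SE 0.16, adjusted p = 0.00768 in edgeR's test, the highest of its 23 alternatives, which began at 3.719e-18). The Log2FC of *Psap* was 0.98 and so nearly as large as without the covariate, but its SE grew from 0.20 to 0.29 and it was no longer called (adjusted p = 0.2155, the highest of its 23 alternatives, which began at 8.911e-06).

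By contrast, *Ctss* and *Ctsc* had Log2FC values of -0.02 (SE 0.28) and -0.13 (SE 0.29) with the covariate, down from 1.56 and 1.41. In these genes the highest GF mouse was the mouse with the highest marker sum. The same mouse was also the highest GF mouse in *Scarb2* (961 CPM) and *Man2b1* (689.7 CPM). Like *Ctss* and *Ctsc*, *Arsb* and *Ctsh* moved by more than 0.5, from 0.54 to -0.30 and from 0.38 to -0.54. The remaining called genes kept a smaller positive value, 0.43 for *Man2b1*, 0.42 for *Scarb2* and 0.35 for *Ctsa*, and were not called. *Atp6v0d1* stayed at 0.51. The median over the 47 genes was 0.07 with the covariate. The covariate itself differs between the groups. With it the SE was larger in 45 of the 47 genes and smaller in 2, *Ctss* and *Ctsc*. Which cells the transcripts came from was not tested.

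**Figure D5:**
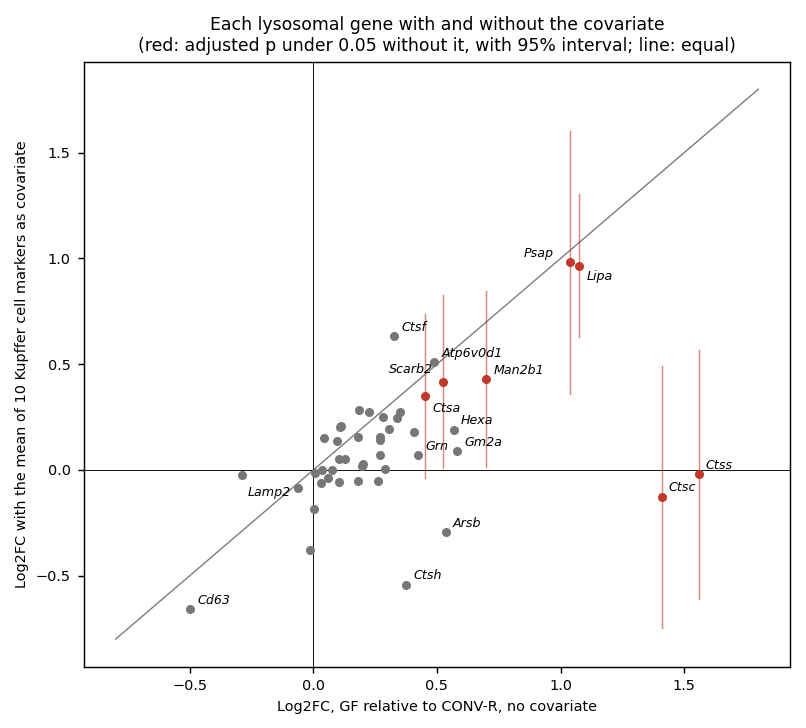
Log2FC of each lysosomal gene without (horizontal) and with (vertical) the averaged log2 CPM of 10 Kupffer cell markers in the model, in log2 units; the 7 called genes are red, with the 95% interval of the second fit, and the line marks equal values. *Lipa* and *Psap* stay near the line at 0.97 and 0.98, and *Ctss* and *Ctsc* drop to -0.02 and -0.13.

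A further 142 genes of the lysosome and its surroundings were put through the same fit. They were not picked by direction, but earlier results of these data were known when they were listed. Of the 132 that could be tested, 11 were called higher and 0 lower (8.33%, against 7.48% of all tested genes), and their median Log2FC was 0.09. At an unadjusted p under 0.05 there were 26, of which 5 were lower in GF ECs, whereas 23% of all tested genes passed this p. DESeq2 called 15 of these genes (13 higher) and voom 11 (10 higher). The largest changes were in *Acp5*, the tartrate-resistant acid phosphatase of macrophages and osteoclasts (2.19), *Laptm5*, a lysosomal membrane protein of blood cells (1.36), and *Creg1*, a lysosomal glycoprotein (0.95). *Acp5* was at 0.92 CPM in CONV-R and 4.28 CPM in GF mice on average. With the Kupffer cell markers as covariate 0 of the 132 genes were called, against 0.643% of all tested genes. In that fit *Acp5* had a Log2FC of 0.65, *Laptm5* 0.04, *Creg1* 0.54 and *Litaf* 0.23.

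Other called genes belong to several steps of lysosome function. *Sort1*, the sorting receptor sortilin, had a Log2FC of 0.94 (SE 0.16, adjusted p = 0.00173 in edgeR's test) from means of 43.3 and 82.8 CPM, and its groups did not overlap. *Cln8*, which helps newly made lysosomal enzymes leave the endoplasmic reticulum, had 0.91 (SE 0.15, adjusted p = 0.00107) from 24.4 and 46.0 CPM, also without overlap. With the covariate these were 0.80 and 0.67. *Hyal2* had 0.49, *Tmem192* 0.65, *Litaf* 0.54, the proton pump accessory subunit *Atp6ap1* 0.52 and *Cst3*, the secreted cathepsin inhibitor cystatin C, 0.93. With edgeR 0 of 17 genes of the mTORC1 and MiT group and 0 of 26 autophagy genes were called, with 3 at an unadjusted p under 0.05 in each. DESeq2 called 1 in each, the former lower and the latter higher, and voom 1 lower and 0. Of all tested genes, edgeR called 7.48% and DESeq2 9.93%, and 23% had an unadjusted p under 0.05 with edgeR. At these shares, 0 calls in lists this short do not set them apart. Without CONV-R mice 2, 4, 5 or 6 or without GF mouse 6, 7, 6, 6, 7 and 6 of the pathway genes were called (in the last, *Laptm5* had 0.93, and *Laptm5*, *Hyal2*, *Tmem192* and *Litaf* were not called), against 5.16%, 4.9%, 5.24%, 5.59% and 4.74% of all tested genes in these fits.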

How the data were processed

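RNA of sorted liver ECs from 6 CONV-R and 5 GF mice was sequenced as single-end reads, with 1 library per mouse, and groups follow the sample labels. The authors deposited raw counts per gene, made by trimming reads with Trim Galore, mapping them with STAR to mm10 (GRCm38) and counting with featureCounts; 1 GF library with few mapped reads was left out by them. The submitters' processing notes also name StringTie. The annotation release and the strand setting of the counting are not given in the sources used here. The authors also deposited normalized values on a log2 scale, which entered 1 alternative only. Each group value is limited by its 5 or 6 mice and, for weak genes, by counting error. The paper also reports fewer sorted cells and less RNA from GF than from CONV-R livers, and low viability of the sorted cells. The part of this difference in the values was not tested.

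Counts were analysed in R 4.3.3 with filterByExpr, TMM scaling and the quasi-likelihood test of edgeR 4.0.16, with Benjamini-Hochberg adjustment over 12905 genes, a threshold of 0.05 and no covariate. CPM are counts scaled with the TMM-scaled totals. DESeq2 1.42.0, used by the authors, and limma 3.58.1 (voom, limma-trend) were alternatives, as were other filters, scalings and dispersions, drawn-down counts, a replicate block, a covariate from 10 Kupffer cell markers (their mean log2 CPM, prior count 2) and each mouse left out. The correction for GC content and length and a fit of the block's libraries with no block were chosen after seeing the data. Positions, exon lengths and overlaps came from GENCODE M21, which matched 29081 of 29307 genes by identifier and all 47 lysosomal genes. Promoters came from RefSeq. The tests were tested on simulated data. Plots were drawn with matplotlib 3.10.9.

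The 47 genes and all lists were chosen with earlier results of these data known, so their counts are descriptions and were not tested as lists. Values in every mouse are given by a written rule for each called gene of the list and for *Lipa*, *Psap*, *Npc1*, *Npc2*, *Lamp1*, *Lamp2*, *Ctsd*, *Ctsl*, *Ctss*, *Grn*, *Tfeb* and *Tfe3*, and other genes by counts, ranges and examples. Of the lymphocyte, hepatocyte, stellate cell, cholangiocyte and endothelial marker lists, edgeR called 1 gene higher in GF ECs (*Spp1*) and 1 lower (*Erg*), and of the monocyte and neutrophil list *Lyz2* higher; DESeq2 and voom each also called 1 lymphocyte and 1 stellate cell marker lower. The values of 1 called pathway gene are not reported here.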

Additional observations from a re-analysis of the deposited data

Results flagged for a closer look

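In 34 groups of 5 or 6 values, the highest and lowest mouse were compared with the rest by Dixon's 95% criterion, which chance meets in about 1 of 20 groups; 6 groups met it. GF mouse 6 was high in 3 of them: *Ctss* at 180.4 CPM (the other GF mice 37.0 to 46.2 CPM), *Ctsc* at 106.9 CPM (19.8 to 36.9 CPM) and the sum of the Kupffer cell markers at 930.7 CPM (197 to 357 CPM). GF mouse 5 was low in *Man2b1* at 425.4 CPM, where the other GF mice lay at 647 to 689.7 CPM. GF mouse 2 was low in *Npc2* at 61.04 CPM (74.2 to 78.8 CPM in the others). CONV-R mouse 3 was high in *Ctsl* at 1896 CPM, against 964 to 1170 CPM in the other CONV-R mice.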

How the results depend on the processing

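Of the 47 lysosomal genes, 7 were called with DESeq2 size factors, voom, at least 10 counts in every library, drawn-down counts and the correction for GC content and length, each time the same 7, and 7 with DESeq2 (*Atp6v0d1* in place of *Ctss*) or without a filter (*Hexa* in place of *Ctsa*), of which 6 were shared. Robust dispersion called 5, without *Ctss* and *Ctsc*, and 959 of all genes. The deposited normalized values gave 2 calls (*Lipa* and *Man2b1*), 5 of the other lysosome pathway genes and 453 of all genes, and DESeq2 gave 1535 of all genes. With the Kupffer cell marker covariate there were 1, 0 and 83, the median Log2FC was 0.0719, and Log2FC of -0.0206 for *Ctss*, -0.1264 for *Ctsc* and -0.0587 for *Ctsd* turned negative. The cause of these changes was not tested. With a mouse left out, 4 to 10 of the 47 genes were called (4 without GF mouse 6), 6 to 13 of the pathway genes and 622 to 1260 of all genes (622 without GF mouse 6 and 625 without CONV-R mouse 4), and 0 of the 47 were lower. *Lipa* was called in all 23 alternatives.

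Genes near 0 changed sign: *Tfeb* had -0.0122 with the normalized values, *Lamp2* 0.0749 with the GC and length correction, and with a mouse left out *Tfeb* ran from -0.1784 to 0.2677, *Tfe3* from -3e-04 to 0.1463, *Lamp2* from -0.1786 to 0.0322 and *Ctsd* from -0.012 to 0.1897. Same-numbered mice of the groups share only a number: in 5 pairs their deviations correlated at -0.0113 to 0.143, and 1 mouse correlated best with its own number. With this number as a replicate block the same 7 genes were called, 1101 of all genes were called, and *Tfeb* had -0.1129; the same 10 libraries without the block gave 6 and 931, with -0.0474 for *Tfeb* and -3e-04 for *Tfe3*. Depth limits weak genes such as *Cd63*, which had 6 to 32 counts.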
